A study of Sus scrofa with 9 samples.

Results

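The 34 genes of fatty acid, triglyceride and sterol metabolism described here were followed in veins that carry the outflow of a surgically made arteriovenous fistula in pigs. They were chosen by name, and 32 of the 34 had a row of that symbol among the 30477 genes of the table; ACACB and AGPAT2 had none. A low-count filter passed 31 of the 32, leaving PNPLA3 below it. The 6 MSC libraries came from pigs with a chronic kidney disease model whose fistula vein received adipose-derived mesenchymal stem cells (MSCs), stromal cells taken from fat, on its outer coat in Ringer's lactate right after surgery. The 3 control libraries came from pigs of the same kidney disease model whose fistula veins were left untreated. Carotid artery and jugular vein formed the fistula, made in both groups 28 days into the kidney disease, and harvest followed 28 days later. The names of MSC 1 and control 2 carry tags (Allo and M, NT and F) that the labels do not explain. Neither age nor breed is given, nor whether each library is a separate animal, so p-values only describe how these libraries vary, and that variation may be technical.

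Cells build fatty acids in the cytosol from citrate-derived acetyl-CoA and store them as triglycerides in lipid droplets. Lipases release them again, and the carnitine shuttle carries them into mitochondria, where a chain of dehydrogenases and the trifunctional protein shorten them. Cholesterol is made by a separate pathway that also starts from acetyl-CoA; in the vessel wall, smooth muscle, endothelium, macrophages and the surrounding fat all use these pathways.

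Values are RPKM, reads per kilobase of gene set relative to the library's depth, divided by a scaling factor per library, and are called scaled RPKM below. Fold changes are MSC over control on the log2(scaled RPKM + 1) scale, which understates the change of low genes, and adjusted p-values come from limma over 17884 genes. Libraries held 16939157 to 47417606 reads. Small non-coding RNA made up 53.3% of all reads for MSC 6, 40.4% for control 2, and 6.75% to 16.5% for the other 7 libraries, and the scaling factors ran from 0.407 in MSC 6 to 1.44 in control 1. MSC 2 was the shallowest library but had reads on 94.5% of genes in the table, against 71.7% to 84.2% in the other 8. Smooth muscle markers, as defining genes of a vein wall, were found in every library, but their sum ran from 170 to 6792 scaled RPKM in MSC veins and from 391 to 540 in control veins. Sequencing lane 7 held MSC 2, MSC 5 and MSC 6 and no control, so lane and treatment cannot be told apart in these 3. Lane 5 held MSC 1, control 1 and control 2, and lane 6 held MSC 3, MSC 4 and control 3. Differences given within lane 5 thus rest on MSC 1 alone for MSC veins, and those within lane 6 on control 3 alone for controls.

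No lipid gene passed the test: 0 of 31 had an adjusted p under 0.05, the lowest being 0.92, and over all genes 0 of 17884 (0%) did. limma-voom on whole reads recovered from the values also called 0 genes. At an unadjusted limma p under 0.05 stood 1 lipid gene, CPT1A, higher in MSC veins, as did 729 of all genes (4.08%), with 1.90% of all genes in that direction. In 1 lipid gene, HADHA, all 6 MSC libraries lay above all 3 controls, as they did in 1.97% of all genes, and in no lipid gene did all lie below (1.97% of all genes). Of the 31, 23 had a positive fold change and the median was 0.15, against 55.3% positive and a median of 0.04 over all genes. With the deposited RPKM unscaled both medians were lower, at -0.01 over the lipid genes and -0.03 over all genes. Only LPIN1, MGLL, CD36, CPT1A, CPT2, ACADVL, HADHA and IDI1 kept the sign of their fold change in all 25 alternative settings. How many of all genes did so was not counted, and the settings reuse the same libraries.

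The libraries differed more within the MSC group than within the controls. In 28 of 31 lipid genes the SD was larger among MSC libraries, with a median SD of 0.66 against 0.22 among controls on the log2(scaled RPKM + 1) scale; over all genes the medians were 0.50 and 0.16, and the MSC SD was the larger in 92.7%. MSC 5 was the top library for 15 of these 32 lipid genes and the bottom one for 9. It was thus at an extreme for 75.0% of them, and for 63.5% of all tested genes. Control 3 was at an extreme for none of the 32 and for 5.17% of all genes.

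**Figure D1:**
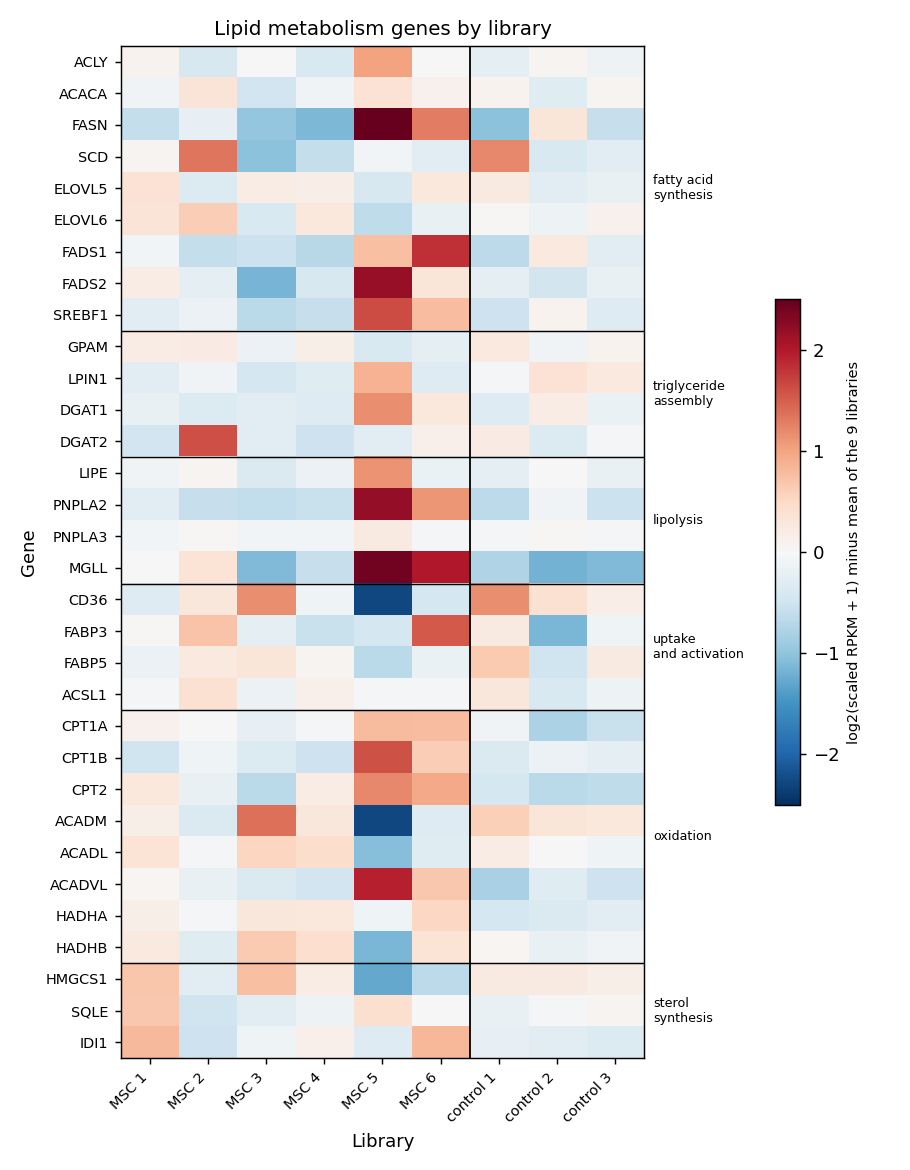
Heat map of the 32 lipid metabolism genes (rows, grouped by role) in 6 MSC and 3 control libraries (columns); colour is log2(scaled RPKM + 1) minus the mean of the 9 libraries, and the scale ends at 2.5 either side. MSC 5 holds the highest value for 15 genes and the lowest for 9.

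**Figure D2:**
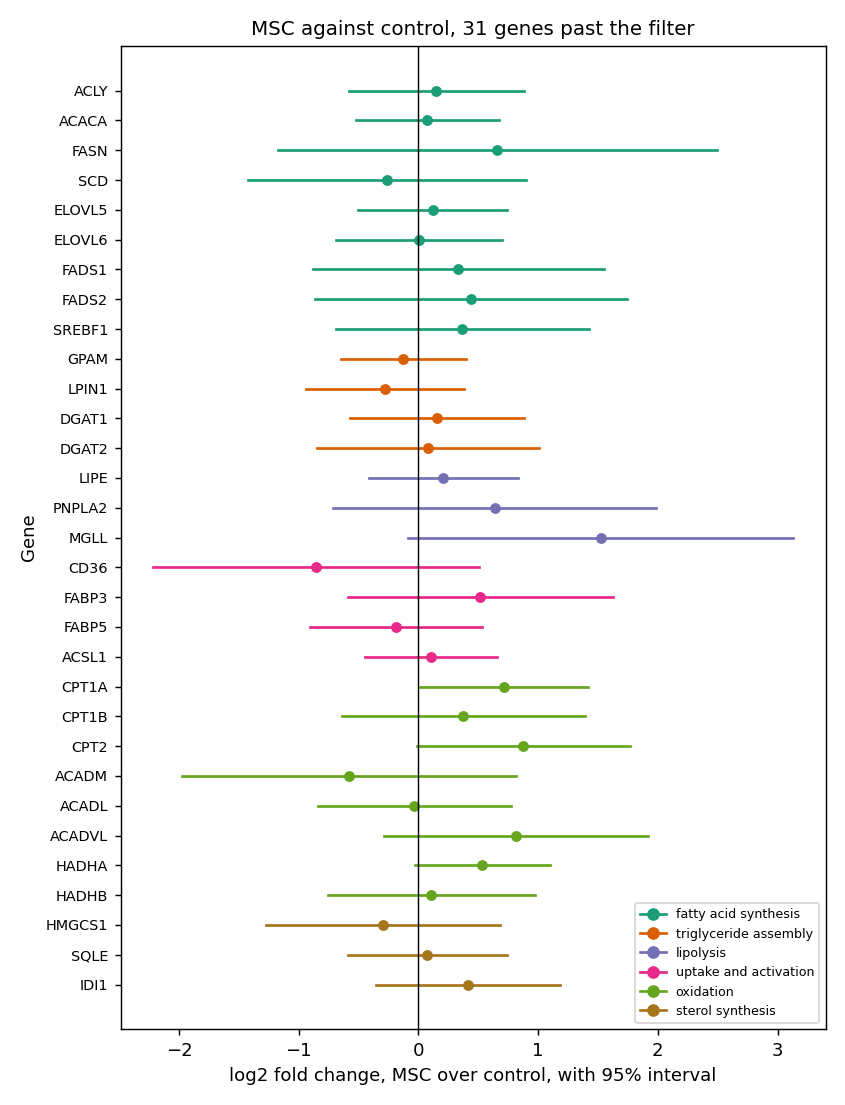
Fold changes of the 31 genes past the filter, MSC over control, as points with 95% intervals from limma on the log2(scaled RPKM + 1) scale; colours mark roles. The interval of CPT1A lies above 0, from 0.01 to 1.42, and every other interval spans 0.

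Genes of fatty acid oxidation included the lipid gene without overlap, HADHA, and those of smallest unadjusted p, CPT1A and CPT2, none of which passed the test. Of 8 oxidation genes, 6 had a positive fold change and 2 a negative one, and 0 passed; the median was 0.46, between 0.24 and 0.54 in all alternative settings. HADHA encodes the subunit of the trifunctional protein with hydratase and long-chain dehydrogenase activity (ENSSSCG00000008571, chromosome 3, 112752865 to 112797735). It was the most abundant of the 32 per gene length. HADHA stood at 26.0, 22.7, 29.0, 28.6, 21.9 and 34.4 scaled RPKM in MSC 1 to MSC 6, against 17.03, 18.1 and 19.5 in control 1 to control 3. The 2 groups did not overlap, and MSC 6 was highest. Means were 27.1 ± 4.61 in MSC veins (SD, n = 6) and 18.2 ± 1.27 in control veins (SD, n = 3), a log2 fold change of 0.54 ± 0.25 (SE) with an adjusted p of 0.92. Within lane 5 (MSC 1 against control 1 and control 2) the difference was 0.54. Within lane 6 (MSC 3 and MSC 4 against control 3) it was 0.54. Both are on the log2 scale and untested. The groups overlapped when RPKM were left unscaled, scaled to protein-coding totals or scaled with factors from all genes.

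CPT1A, the outer-membrane carnitine palmitoyltransferase that sets the rate of entry into oxidation (ENSSSCG00000012880, chromosome 2, 4233099 to 4293984), averaged 7.88 ± 2.81 scaled RPKM in MSC veins and 4.32 ± 1.38 in control veins. It stood at 6.80, 6.20, 5.28, 6.11, 11.5 and 11.4 in MSC 1 to MSC 6, against 5.85, 3.17 and 3.95 in control 1 to 3. In all, 5 of 6 MSC libraries lay above the highest control, control 1, and MSC 3 lay below it. The log2 fold change was 0.71 ± 0.32 (SE; unadjusted p of 0.0469, adjusted p of 0.92), with 0.55 in lane 5 and 0.43 in lane 6.

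CPT2, the inner-membrane partner that hands the acyl group back to coenzyme A (chromosome 6, 159036821 to 159061327), gave a like picture. It stood at 9.76, 6.84, 4.61, 9.07, 19.6 and 16.2 scaled RPKM in MSC 1 to MSC 6, against 5.55, 4.58 and 4.77 in the 3 controls. MSC 3 alone lay inside the control range. Its log2 fold change was 0.88 ± 0.40 (SE, adjusted p of 0.92), with 0.83 in lane 5 and 0.38 in lane 6. CPT1B, the muscle form of the first enzyme, averaged 3.68 ± 3.33 scaled RPKM in MSC veins, or 2.41 without MSC 5 at 10.1, and 2.08 ± 0.22 in control veins.

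The acyl-CoA dehydrogenases split by library. ACADVL, which takes very long chains, stood at 30.0 scaled RPKM in MSC 5 and 11.9 in MSC 6, and at 7.33, 6.13, 5.34 and 4.84 in MSC 1 to MSC 4, against 3.64, 5.56 and 4.64 in the controls. MSC 1, 2, 5 and 6 were above the highest control. Its log2 fold change was 0.82 ± 0.50 (SE, adjusted p of 0.92), with 0.595 in lane 5 and 0.11 in lane 6. ACADVL overlaps DVL2 and a listed miRNA gene, so its reads are uncertain. The MSC mean of ACADVL was 7.11 without MSC 5, against 10.9 with it. ACADM, which takes medium chains, went the other way in MSC 5: 12.5, 8.53, 30.9, 13.9, 1.51 and 8.70 scaled RPKM in MSC 1 to MSC 6, against 17.4, 14.1 and 13.6 in controls. MSC 3 was far above and MSC 5 far below every other library. The log2 fold change of ACADM was -0.58 ± 0.63 (SE, adjusted p of 0.92), and it had a positive sign in lanes 5 and 6 alone (0.22). ACADL, for long chains, ranged from 3.01 in MSC 5 through a median of 8.44 to 11.2 in MSC 3, around controls at 8.57, 7.30 and 6.80. HADHB, the thiolase subunit of the trifunctional protein, ranged from 7.24 in MSC 5 through a median of 21.2 to 27.5 in MSC 3, with controls at 17.7, 15.03 and 16.02. Neither ACADL nor HADHB separated the groups (log2 fold changes of -0.03 and 0.11, with the sign changing between settings).

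**Figure D3:**
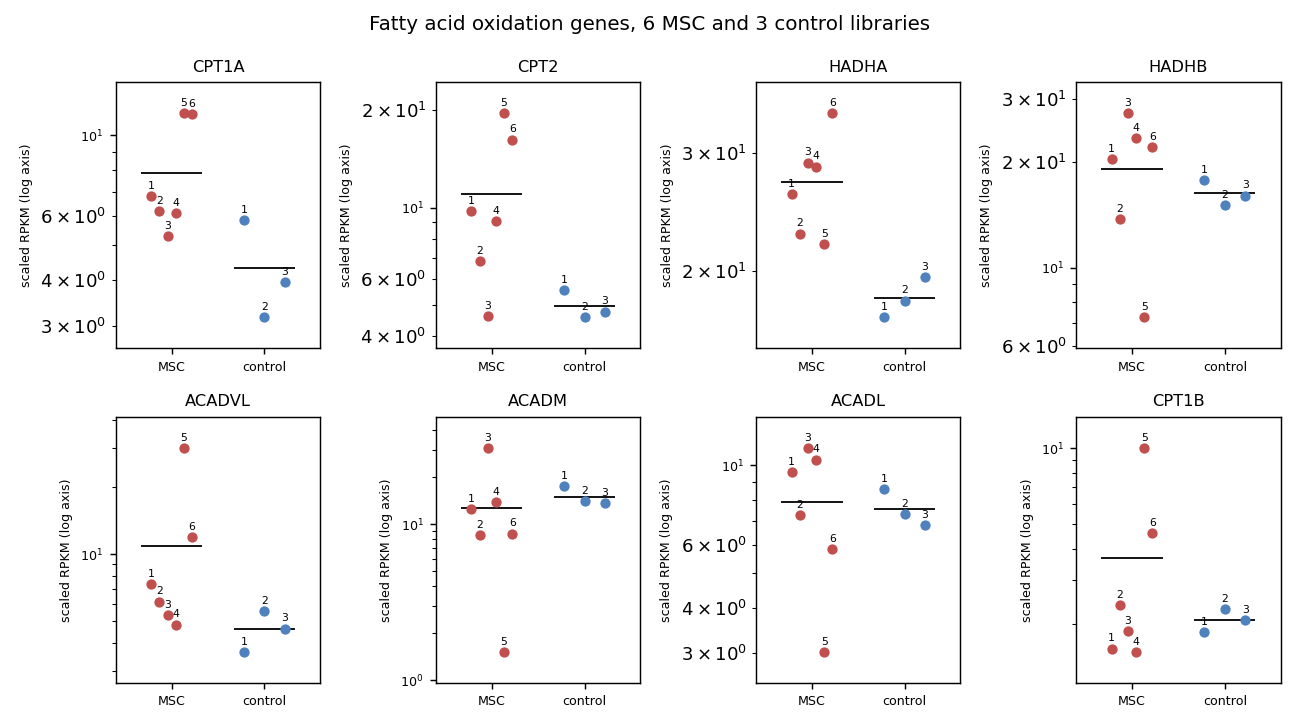
Scaled RPKM of the 8 oxidation genes on log axes, 6 MSC libraries at left and 3 control libraries at right, numbered by replicate; horizontal lines are group means. HADHA alone shows no overlap, and MSC 5 is highest for CPT1A, CPT2, ACADVL and CPT1B but lowest for HADHB, ACADM and ACADL.

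Fatty acid synthesis genes overlapped between the groups. MSC 5 was the highest library for 5 of 9 and MSC 6 for 1, while SCD and ELOVL6 peaked in MSC 2 and ELOVL5 in MSC 1. Of 9 genes 8 had a positive fold change and 0 passed, with a median of 0.15; this was -0.01 with no scaling and -0.14 without MSC 5 and MSC 6. FASN, the synthase that makes palmitate (ENSSSCG00000029944, chromosome 12, 920507 to 937559), stood at 1.69, 2.53, 1.09, 0.87, 29.7 and 8.83 scaled RPKM in MSC 1 to MSC 6, against 0.99, 3.98 and 1.72 in control 1 to 3. MSC 5 and MSC 6 were above every control, MSC 4 was below every control, and MSC 1, 2 and 3 lay among them. The means were 7.46 ± 11.3 in MSC veins and 2.23 ± 1.56 in control veins, the MSC mean was 3.002 without MSC 5, and the log2 fold change of 0.66 ± 0.83 (SE, adjusted p of 0.92) turned to -0.47 in lanes 5 and 6 alone.

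SREBF1, the transcription factor that drives lipogenic genes, stood at 5.63 scaled RPKM in MSC 5 and 2.69 in MSC 6, and at 0.79, 0.94, 0.35 and 0.45 in MSC 1 to MSC 4, against 0.50, 1.30 and 0.73 in controls. It followed FASN in having its highest values in MSC 5, MSC 6 and control 2; it overlaps RAI1 and a listed miRNA gene, so its reads are uncertain. FADS2, the delta-6 desaturase of polyunsaturated fatty acids, was at 23.4 scaled RPKM in MSC 5 and 5.18, 3.63, 1.43, 3.08 and 5.70 in the other MSC libraries, against 3.61, 2.93 and 3.79 in controls. FADS1, the delta-5 desaturase beside it on chromosome 2, had its highest value in MSC 6 (40.8) and its next in MSC 5 (18.8), with a median of 8.67 in MSC veins and with controls at 6.52, 13.0 and 8.87. The neighbouring desaturases thus peaked in different libraries. ACLY, which makes cytosolic acetyl-CoA from citrate, was at 23.0 in MSC 5 and between 8.001 and 11.7 in the other MSC libraries, against 9.18, 11.5 and 9.90 in controls.

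The remaining synthesis genes were steadier or moved otherwise. ELOVL5, an elongase of polyunsaturated fatty acids and the most abundant synthesis gene per length, stood at 18.0, 10.6, 15.8, 15.6, 10.1 and 16.7 scaled RPKM in MSC 1 to MSC 6, against 16.1, 11.2 and 12.0 in controls. The groups overlapped fully (log2 fold change of 0.12 ± 0.28 SE, adjusted p of 0.93). ACACA, which makes malonyl-CoA, averaged 11.7 ± 2.63 scaled RPKM in MSC veins and 10.9 ± 1.73 in control veins; 5 other listed genes overlap it. ELOVL6, which elongates palmitate and overlaps ENPEP and an unnamed gene, averaged 3.45 ± 1.44 in MSC veins and 3.26 ± 0.35 in control veins. SCD, the delta-9 desaturase, was high in 2 libraries, MSC 2 at 29.6 and control 1 at 26.6 scaled RPKM, and between 4.94 and 11.7 in the other 7. Its log2 fold change was -0.26 ± 0.52 (SE, adjusted p of 0.92) and had a positive sign without control 1 (0.25).

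Triglyceride assembly genes were low and overlapped between the groups. Of 4 genes 2 had a positive and 2 a negative fold change, and 0 passed. The median was -0.02, but -0.26 with lane as a covariate, -0.295 in lanes 5 and 6 alone, -0.35 with limma-voom and -0.20 without MSC 2. LPIN1, a phosphatidate phosphatase, stood at 1.01, 1.25, 0.77, 0.95, 3.37 and 0.93 scaled RPKM in MSC 1 to MSC 6, against 1.33, 2.09 and 1.84 in controls. Thus 5 of 6 MSC libraries lay below every control and MSC 5 above every control. The log2 fold change was -0.28 ± 0.30 (SE, adjusted p of 0.92), and the MSC mean was 0.98 ± 0.18 without MSC 5, against 1.38 ± 0.99 with it. GPAM, the mitochondrial acyltransferase of the first step, stood at 2.54, 2.60, 1.82, 2.49, 1.43 and 1.63 in MSC 1 to MSC 6, against 2.74, 1.97 and 2.32 in controls; it overlaps TECTB.

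DGAT1 and DGAT2, the 2 enzymes that add the last fatty acid, peaked in different veins. DGAT1 was at 2.94 scaled RPKM in MSC 5 and 1.10 in MSC 6, and at 0.53, 0.37, 0.45 and 0.40 in MSC 1 to MSC 4, against 0.39, 0.99 and 0.56 in controls; it overlaps HSF1. DGAT2 was at 3.55 in MSC 2 and 0.07, 0.23, 0.04, 0.24 and 0.64 in the other MSC libraries, against 0.74, 0.18 and 0.47 in controls. DGAT2 had as few as 9 reads in a library, and its MSC mean was 0.24 without MSC 2, against 0.80 with it.

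Among lipolysis genes, MGLL had the largest fold change of the 31. All 3 tested members had a positive fold change and 0 passed; the median of 0.64 was -0.004 without MSC 5 and MSC 6 and -0.07 in lanes 5 and 6 alone. MGLL, the monoacylglycerol lipase that ends triglyceride breakdown and degrades the endocannabinoid 2-AG (ENSSSCG00000024134, chromosome 13, 72479337 to 72568962), stood at 6.72, 8.84, 2.61, 4.25, 40.4 and 30.4 scaled RPKM in MSC 1 to MSC 6, against 3.66, 2.42 and 2.62 in controls. MSC 3 lay within the control range and the other 5 MSC libraries above every control. Means were 15.5 ± 15.8 in MSC veins and 2.90 ± 0.67 in control veins, a log2 fold change of 1.52 ± 0.73 (SE; 95% interval from -0.09 to 3.13; unadjusted p of 0.0615, adjusted p of 0.92). It was 0.67 without MSC 5 and MSC 6, and 0.95 within lane 5 and 0.27 within lane 6.

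PNPLA2, the adipose triglyceride lipase that starts the breakdown, stood at 10.8 scaled RPKM in MSC 5 and 4.55 in MSC 6, and at 1.11, 0.74, 0.69 and 0.76 in MSC 1 to MSC 4, against 0.65, 1.44 and 0.77 in controls. The 4 lower MSC libraries lay within the control range (log2 fold change of 0.64 ± 0.61 SE, adjusted p of 0.92). LIPE, the hormone-sensitive lipase of the next step, was at 2.23 in MSC 5 and 0.40, 0.57, 0.16, 0.34 and 0.33 in the other MSC libraries, against 0.27, 0.49 and 0.31 in controls. PNPLA3, a lipid droplet hydrolase, was too low to test, with 2 reads in its lowest library and 0.04 to 0.27 scaled RPKM in MSC veins against 0.06 to 0.11 in control veins.

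Uptake, binding and activation genes showed no common direction: 2 positive, 2 negative, 0 passed, with a median of -0.04. CD36, the fatty acid translocase and scavenger receptor of macrophages, adipocytes and small-vessel endothelium (ENSSSCG00000015405, chromosome 9, 99605181 to 99782105), stood at 5.33, 8.645, 16.7, 6.43, 0.64 and 4.84 scaled RPKM in MSC 1 to MSC 6, against 16.9, 9.29 and 7.96 in controls. In 4 of 6 MSC libraries CD36 lay below every control, and in none above control 1. Means were 7.10 ± 5.39 in MSC veins and 11.4 ± 4.80 in control veins, a log2 fold change of -0.86 ± 0.62 (SE, adjusted p of 0.92), with -1.10 in lane 5 but 0.36 in lane 6. Control veins averaged 8.62 without control 1. CD36 overlaps a U2 gene and an unnamed gene.

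The fatty acid binding proteins that carry lipids through the cytosol did not separate the groups either. FABP5, the epidermal form also found in macrophages and endothelium, stood at 8.90, 12.1, 12.5, 10.4, 5.88 and 8.76 scaled RPKM in MSC 1 to MSC 6, against 16.1, 6.80 and 11.8 in controls. FABP3, the heart and muscle form, was at 16.3 in MSC 6 and at 5.05, 8.82, 4.02, 3.02 and 3.41 in MSC 1 to MSC 5, against 5.92, 1.69 and 4.52 in controls; it overlaps ZCCHC17. Its log2 fold change of 0.52 ± 0.50 (SE, adjusted p of 0.92) was -0.18 without control 2 and MSC 6. ACSL1, which activates fatty acids to their CoA esters, was the steadiest of the 4 in MSC veins, at 4.01 to 6.20 scaled RPKM there and at 5.76, 3.27 and 4.10 in controls.

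Sterol synthesis genes overlapped between the groups, with 2 positive and 1 negative fold change, 0 passed, and a median of 0.07. This median ran from -0.125 with protein-coding totals to 0.35 in lanes 5 and 6 alone and 0.40 with lane as a covariate. HMGCS1, which condenses acetyl-CoA units at the entry to the pathway, stood at 12.3, 5.79, 12.9, 8.33, 2.40 and 4.22 scaled RPKM in MSC 1 to MSC 6, against 8.58, 8.653 and 8.05 in controls. The controls lay within a narrow band, and MSC values lay on both sides of it, 2 above and 3 below every control. IDI1, the isopentenyl diphosphate isomerase, stood at 10.4, 3.56, 5.07, 6.13, 4.21 and 10.6 in MSC 1 to MSC 6, against 4.65, 4.37 and 4.15 in controls. MSC 1, 3, 4 and 6 were above every control (log2 fold change of 0.41 ± 0.35 SE, adjusted p of 0.92; 1.05 in lane 5 and 0.35 in lane 6); it overlaps WDR37. SQLE, the squalene epoxidase, ranged from 2.45 in MSC 2 through a median of 3.66 to 6.78 in MSC 1, against 3.28, 3.77 and 4.14 in controls. MSC 1 was above every control for all 3 sterol genes and MSC 2 below every control.

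Ratios of genes within a library do not depend on the scaling between libraries. The 9 pairs were picked after their values were seen and were not tested. MSC 5 was the highest library in 6 of the 9 ratios and the lowest in 2. HADHA and HADHB encode the subunits of 1 complex, and their rows overlap on chromosome 3. Their RPKM ratio was 3.02 in MSC 5 and 1.06 to 1.65 in the other MSC libraries, against 0.96 to 1.22 in controls. The ratio of ACADVL to ACADM was 19.9 in MSC 5, 1.37 in MSC 6 and 0.17 to 0.72 in the other 4 MSC libraries, against 0.21 to 0.39 in controls. FASN to ACACA, successive enzymes of palmitate synthesis, stood at 2.02 in MSC 5, 0.73 in MSC 6 and 0.08 to 0.18 in MSC 1 to MSC 4, against 0.08 to 0.45 in controls. In these 3 pairs MSC 5 was the highest library, as it was for FASN to ELOVL5 at 2.94, FADS2 to FADS1 at 1.25 and SQLE to HMGCS1 at 2.25. Controls held 0.06 to 0.36 for FASN to ELOVL5, 0.22 to 0.55 for FADS2 to FADS1 and 0.38 to 0.51 for SQLE to HMGCS1. The other 3 pairs peaked elsewhere. PNPLA2 to LIPE was highest in MSC 6, at 13.9, with 4.85 in MSC 5 and 2.36 to 2.91 in controls. DGAT2 to DGAT1 was highest in MSC 2, at 9.49, and lowest in MSC 5, at 0.08, with 0.18 to 1.88 in controls. CPT1A to CPT1B was highest in MSC 1, at 4.24, and lowest in MSC 5, at 1.14, with 1.38 to 3.14 in controls.

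**Figure D4:**
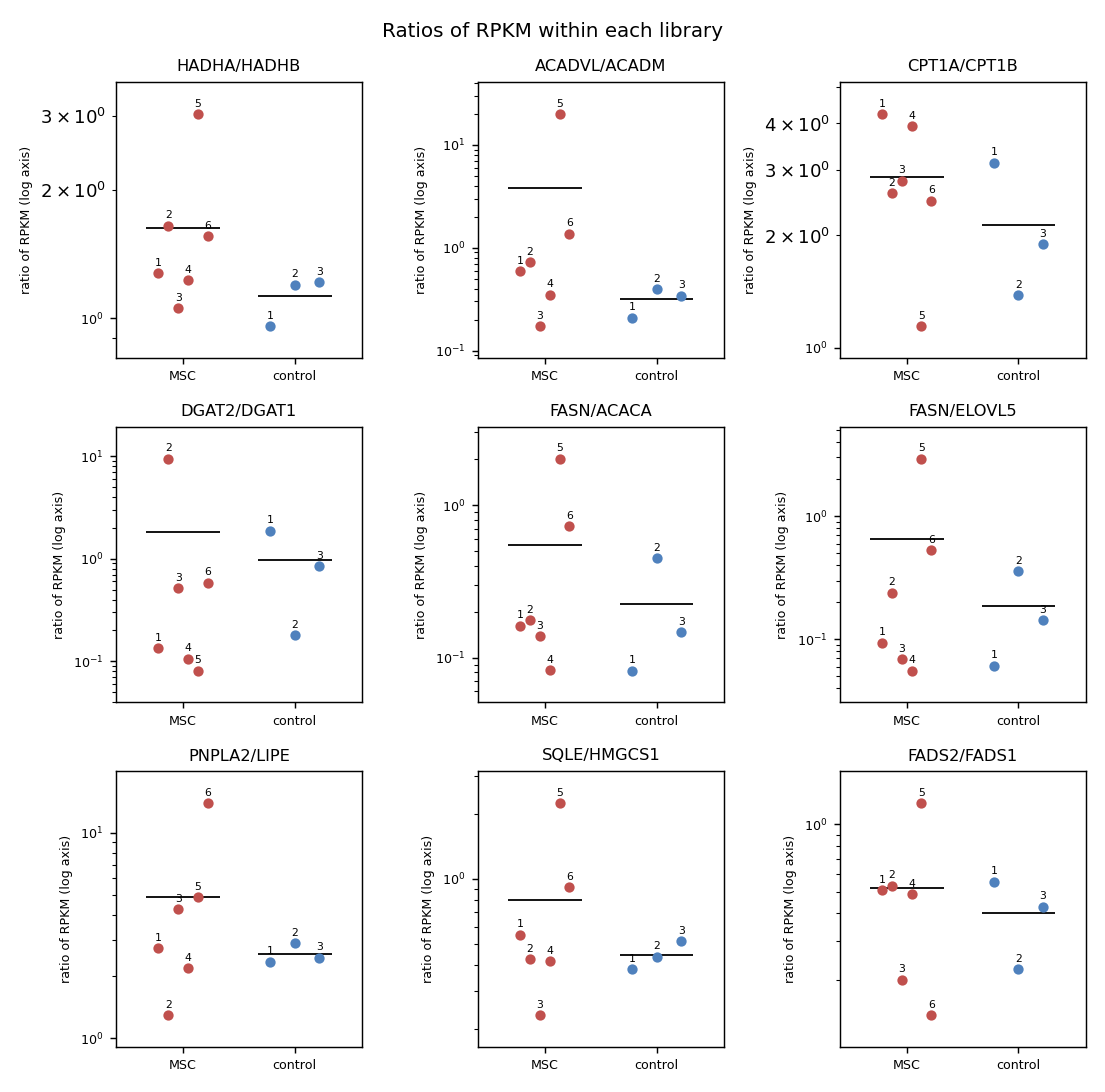
Ratios of RPKM between 2 genes within each library, on log axes, for 9 pairs in 6 MSC and 3 control libraries numbered by replicate, with group means as lines. MSC 5 is highest in 6 panels, at 3.02 for HADHA over HADHB and 19.9 for ACADVL over ACADM, and lowest in 2, DGAT2 over DGAT1 and CPT1A over CPT1B.

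Marker genes of other cell types moved with several of these values. In whole veins, fewer cells of a type and less RNA per cell cannot be told apart. Smooth muscle markers summed to 6339 scaled RPKM in MSC 5 and 6792 in MSC 6, the libraries with the highest MGLL, FASN, PNPLA2, SREBF1 and ACADVL, and to 170 in MSC 3, which had the lowest MGLL, CPT1A and CPT2 of the MSC group. Yet 9 of the 32 lipid genes were lowest in MSC 5, among them ACADM, HADHB, HMGCS1 and CD36. Over all tested genes MSC 5 was highest for 31.7% and lowest for 31.8%. All 9 smooth muscle markers had a positive fold change, 0 passed, and the median was 1.70. Control 2, with the most FASN, SREBF1 and PNPLA2 of the controls, had the lowest sum of the controls, 391. Fibroblast markers, 7 of 7 in the table, summed to 43460 in MSC 5 and 9538 to 17186 in the other MSC libraries. In controls they summed to 8350 to 19361. COL1A1 at 23153 and COL3A1 at 19765 made up most of the MSC 5 sum. MSC 5 was the highest library for 3 of the 7 and the lowest for 4, among them DCN at 178 and LUM at 29.2. Of the 7, 3 had a positive fold change, 0 passed and the median was -0.05. The part of smooth muscle and fibroblasts in these values was not tested. Adipocyte markers, 8 of 10 of them in the table and 7 tested, summed to 14.8 to 82.2 in MSC veins and 10.7 to 70.8 in control veins, with 4 of 7 positive, 0 passed and a median fold change of 0.05. MSC 2 was the highest library for 5 of the 8. FABP4 was highest in MSC 3, at 47.0, and PLIN4 and GPD1 in MSC 5, at 7.65 and 2.94. ADIPOQ, the adipokine that marks fat cells, was at 26.8 in MSC 2 and 8.12 in control 1. It was at 0.05 to 0.74 in the other MSC libraries and 0.20 and 1.41 in the other controls. MSC 2 and control 1 were also the libraries with the most SCD and DGAT2; the part of fat tissue in this was not tested. CIDEC and LEP, defining adipocyte genes, were listed at 0 in at least 1 library.

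Macrophage markers, all 11 of 11 in the table, summed to 263 to 1381 scaled RPKM in MSC veins and 408 to 667 in control veins; 4 were positive, 0 passed and the median fold change was -0.20. The sum was highest in MSC 3, which had the most CD36 of the MSC group, while in control 1, with the most CD36 of all, it was 667. C1QC alone made up 737 of the MSC 3 sum. CD36 was lowest in MSC 5, where 5 of the 11 markers were lowest too, among them CD163 at 6.24 and MRC1 at 4.91, while CSF1R was at its highest there, at 47.4. GPNMB lay below every control in all MSC libraries, at 12.2 to 91.5 against 128 to 384. TREM2 did so too, at 0.88 to 2.30 against 2.73 to 4.61, while the other macrophage markers overlapped. All MSC libraries lay below all controls in 1.97% of all genes. Endothelial markers, 8 of 8 in the table, summed to 57.1 to 151 in MSC veins and 36.2 to 111 in control veins, with MSC 5 highest; 5 were positive, 0 passed and the median was 0.19. Skeletal muscle markers, 8 of 11 in the table, summed to 184 scaled RPKM in MSC 6, the library with the most FABP3, 0.27 to 4.87 in the other MSC libraries and 0.41 to 0.85 in controls. ACTA1 alone made up 181 of that sum, and it stood at 1.15 in MSC 5. MSC 6 was the highest library for 3 of these 8 markers, MSC 5 for 3 and MSC 2 for 2. All 6 tested skeletal muscle markers were positive, 0 passed and the median fold change was 0.18. B and plasma cell markers summed to 18.8 to 229 in MSC veins and 32.7 to 73.1 in control veins. CD79A alone made up 227.5 of the 229 in MSC 6. Of these 7 markers 1 was positive, and the median fold change was -0.86. T and NK cell markers summed to 18.8 to 60.1 in MSC veins and 35.7 to 44.96 in control veins. Of these 7 markers 0 were positive, and the median was -0.46. In either list 0 passed. The part of these cell types in the values was not tested.

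**Figure D5:**
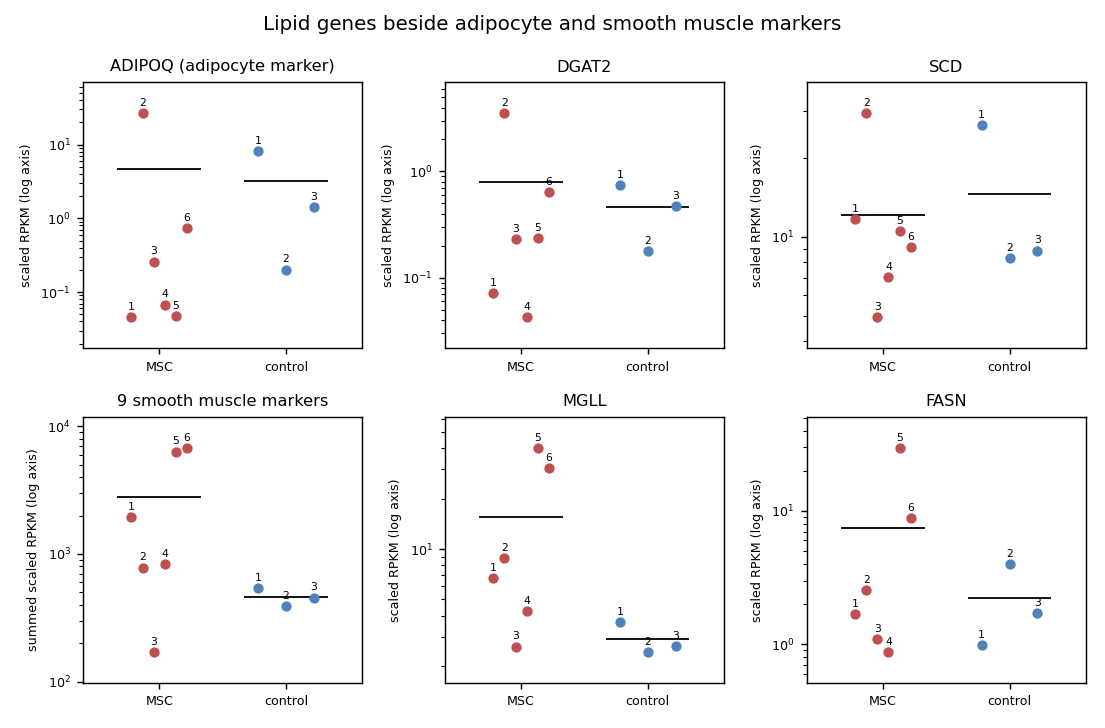
Scaled RPKM on log axes of ADIPOQ, DGAT2 and SCD (top) and of the sum of 9 smooth muscle markers, MGLL and FASN (bottom) in 6 MSC and 3 control libraries, numbered by replicate, with group means as lines. MSC 2 and control 1 lead the top row, and MSC 5 and MSC 6 lead the bottom row.

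A wider list of 95 further genes of the same pathways gave the same count of calls. Of these, 89 were in the table and 84 were tested: 53 had a positive and 31 a negative fold change, 0 passed in either direction, and the median was 0.15, against 0.04 over all genes. In 4 of the 84 the groups did not overlap, where 3.94% of all genes did not. LIPA, the lysosomal acid lipase that frees cholesterol and fatty acids from engulfed lipoproteins, had the largest negative fold change of the list, at -1.31 ± 0.52 (SE, adjusted p of 0.92). It stood at 11.12, 10.4, 25.4, 15.3, 3.45 and 6.17 scaled RPKM in MSC 1 to MSC 6, against 41.8, 23.0 and 19.6 in controls, and overlaps CH25H, IFIT1 and IFIT2. MSC 3 lay within the control range and the other 5 MSC libraries below every control. LIPA and MOGAT1 were the 2 genes of the list at an unadjusted limma p under 0.05 and lower in MSC veins, as were 2.18% of all genes. The MOGAT1 row, annotated as a pseudogene in the table and lying wholly inside ACSL3, averaged 0.57 ± 0.35 scaled RPKM in MSC veins and 1.19 ± 0.40 in control veins, so its reads are uncertain.

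GPIHBP1, which anchors lipoprotein lipase to capillary endothelium, exceeded every control throughout the 6 MSC libraries, at 0.43 to 4.34 scaled RPKM against 0.19 to 0.26. MSC 5 and MSC 6 held its highest values, 4.34 and 3.49. The GPIHBP1 values rest on few reads, 4 in its lowest library and a mean of 26.9. ACSL3, an acyl-CoA synthetase of lipid droplets, was below every control in all 6, at 1.39 to 5.55 against 6.57 to 7.16 (log2 fold changes of 0.86 ± 0.45 for GPIHBP1 and -0.76 ± 0.35 for ACSL3, SE, adjusted p of 0.92 each). SCD5, another delta-9 desaturase, was also below every control, at 1.66 to 2.90 scaled RPKM against 3.52 to 3.99. NSDHL, a sterol dehydrogenase, was above every control, at 0.87 to 1.40 against 0.71 to 0.81. None of these 4 passed the test.

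Others of the list with the smallest p in their role overlapped between the groups. They included PPARA, the nuclear receptor that turns on oxidation genes, at 3.71 ± 1.98 scaled RPKM in MSC veins and 2.02 ± 0.31 in control veins. ETFB, an electron carrier of the dehydrogenases, averaged 9.14 ± 6.86 in MSC veins and 3.82 ± 0.92 in control veins. ECHS1, the short-chain hydratase, averaged 12.7 ± 9.70 in MSC veins and 6.28 ± 0.89 in control veins. These 3 oxidation genes were highest in MSC 5 or MSC 6. In the sterol pathway EBP, a sterol isomerase, averaged 11.9 ± 7.76 in MSC veins, with 27.0 in MSC 6, and 5.79 ± 0.79 in control veins. PMVK, the phosphomevalonate kinase, averaged 1.20 ± 0.43 in MSC veins and 0.74 ± 0.16 in control veins. Both were at their highest in MSC 5 or MSC 6.

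Of the triglyceride genes AGPAT3, an acyltransferase, averaged 4.18 ± 3.17 scaled RPKM in MSC veins and 1.74 ± 0.36 in control veins. BSCL2, which encodes seipin of the lipid droplet, averaged 8.54 ± 6.49 in MSC veins and 4.19 ± 0.98 in control veins. Both were highest in MSC 5. ABHD5, the activator of PNPLA2, averaged 1.71 ± 0.68 in MSC veins and 2.20 ± 0.26 in control veins. DAGLA, which makes the 2-AG that MGLL degrades, stood at 7.83 in MSC 5 and averaged 1.85 ± 2.98 in MSC veins, against 0.48 ± 0.11 in control veins. MSC 5 was thus the highest library for DAGLA and the lowest for ABHD5. ELOVL1, an elongase of very long chains, averaged 5.99 ± 4.18 in MSC veins and 3.19 ± 0.46 in control veins. HACD2, the dehydratase of the elongation cycle, averaged 5.46 ± 2.18 in MSC veins and 8.18 ± 1.24 in control veins. ACSL4, which activates arachidonic acid, averaged 15.4 ± 9.81 in MSC veins and 21.9 ± 1.88 in control veins. MSC 5 was highest for ELOVL1 and lowest for HACD2 and ACSL4.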

How the data were processed

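The 9 vein libraries were prepared with a TruSeq V2 kit, each using 0.5 µg of RNA, per the labels' protocols. The authors deposited RPKM values per gene, per the file headers; aligner and counter: not given in the sources used here. With no role, susScr11 and mm10 appear in the submitters' processing notes, so coordinates are as deposited; 31 of the 32 genes had a RefSeq gene of that symbol, and all 31 lay at overlapping positions in Sscrofa11.1. Each library's values, multiplied by gene length plus 1, were within 0.01 of whole numbers of a fixed step, so reads and depth could be recovered. For a 2 kilobase gene, 1 read equals 0.0105 to 0.0295 RPKM, counting error only.

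Kept genes had 15 reads over all libraries and, in 3 or more of these, the equivalent of 10 reads at median depth. Scaling factors were trimmed means of M-values (trims 0.3 and 0.05) over kept genes. limma 3.58.1 in R 4.3.3 was fitted to log2(scaled RPKM + 1), pseudocount 1, with no covariate, a trended prior and Benjamini-Hochberg adjustment; 0.05 was the threshold. The fit was tested on simulated reads with large known changes and the same spread in both groups. That check does not cover the unequal spread seen here. Alternatives changed the scaling, pseudocount, filter, prior, lane or replicate terms and test (limma-voom), or left out libraries. Values stood in full for genes without overlap, the 2 of smallest p and the most abundant in each role, and genes whose highest library was over 5 times the median; ACADM was added after its values were seen; further genes were named by smallest p, up to 3 per role, or because a part of the text turned on them. The further and marker genes took symbols from the table, or from a gene name table that matched 785 of 14012 unnamed IDs. Genes and lists were chosen with earlier results of these data known. No sequence is shown.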

Additional observations from a re-analysis of the deposited data

Results flagged for a closer look

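In each of the 32 lipid genes the 6 MSC libraries were searched for 1 library far from the other 5 on the log2 scale. Such a library was found in 5 genes, where about 1.6 would be flagged by chance, at 1 in 20. No such count was made over all genes, and genes of 1 library do not vary independently. MSC 5 was at an extreme for 63.5% of all tested genes, so the flags are not read as a trait of lipid genes. With 3 libraries, controls could not be searched. MSC 5 stood above the other MSC libraries in ACLY (23.0 scaled RPKM), LPIN1 (3.37), LIPE (2.23) and PNPLA3 (0.27), the last resting on few reads. MSC 2 stood above the others in DGAT2 (3.55).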

How the results depend on the processing

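Over 25 alternatives the 31 lipid genes stayed at 0 calls, DGAT1, DGAT2 and LIPE not being tested under a filter of 1 RPKM; the lowest adjusted p of any was 0.165, for HADHA in lanes 5 and 6 alone. Over all genes, 7 were called in lanes 5 and 6 alone, and 0 to 22 with 1 library left out (22 without control 1, 3 without MSC 3, 1 without MSC 2). The count of lipid genes without overlap was 0 with no scaling, protein-coding totals or factors from all genes. It was 1 to 4 with 1 library left out, which at fixed scaling can only keep or raise the count. Over all genes the share without overlap was 1.71% with no scaling, 3.44% with protein-coding totals and 3.84% with factors from all genes. With 1 library left out that share ran from 4.29% without MSC 6 to 8.76% without MSC 3, the setting with 4 lipid genes. The settings with factors from all genes and those for overlap were chosen after seeing the data. Protein-coding totals moved the median of all genes to -0.07. LPIN1, MGLL, CD36, CPT1A, CPT2, ACADVL, HADHA and IDI1 kept their sign throughout, and the other 23 changed it at least once, 111 times in all. The same was not counted over all genes, and the cause was not tested. The triglyceride assembly median was -0.348 with limma-voom, -0.262 with lane as a covariate and -0.295 in lanes 5 and 6 alone, and the oxidation median was 0.238 with protein-coding totals. Log2 fold changes of opposite sign to the reported ones follow. With no scaling they were ACLY -0.013, ACACA -0.093, ELOVL5 -0.052, ELOVL6 -0.105, DGAT2 -0.006, ACSL1 -0.036, HADHB -0.059 and SQLE -0.064. With protein-coding totals they were ACLY -0.079, ACACA -0.153, ELOVL5 -0.109, ELOVL6 -0.161, ACSL1 -0.089, HADHB -0.115 and SQLE -0.125. In lanes 5 and 6 alone they were ACLY -0.005, ACACA -0.173, FASN -0.474, FADS1 -0.219, FADS2 -0.177, SREBF1 -0.28, DGAT1 -0.173, DGAT2 -0.417, LIPE -0.069, PNPLA2 -0.065, CPT1B -0.212, ACADM 0.218, ACADL 0.419 and HMGCS1 0.347. With the replicate block they were ACLY -0.014, ACACA -0.029, FASN -0.148, FADS1 -0.182, FADS2 -0.106, SREBF1 -0.118, DGAT1 -0.168, PNPLA2 -0.066, FABP5 0.01, CPT1B -0.065, ACADM 0.006, ACADL 0.263 and HMGCS1 0.193. Without MSC 5 and MSC 6 they were ACLY -0.102, ACACA -0.055, FASN -0.313, FADS1 -0.279, FADS2 -0.136, SREBF1 -0.2, DGAT1 -0.206, LIPE -0.004, PNPLA2 -0.098, CPT1B -0.141, ACADL 0.285, HMGCS1 0.122 and SQLE -0.031. With lane as a covariate they were ACACA -0.166, FASN -0.344, FADS1 -0.114, FADS2 -0.033, SREBF1 -0.183, GPAM 0.004, DGAT1 -0.126, DGAT2 -0.398, LIPE -0.022, CPT1B -0.211, ACADM 0.137, ACADL 0.423 and HMGCS1 0.397. Without MSC 1 and control 2 they were ACACA -0.029, ELOVL5 -0.045, ELOVL6 -0.131, ACSL1 -0.027 and SQLE -0.05. Without MSC 6 and control 2 they were ACACA -0.097, ELOVL5 -0.05, ELOVL6 -0.053, DGAT2 -0.144, FABP3 -0.184, ACSL1 -0.056 and HADHB -0.031. With factors from all genes they were ACACA -0.059, ELOVL5 -0.015, ELOVL6 -0.109, ACSL1 -0.011, HADHB -0.025 and SQLE -0.035. With a pseudocount of 0.1 they were ELOVL6 -0.02 and DGAT2 -0.211. With a pseudocount of 0.5 ELOVL6 was at -0.007. With limma-voom they were ELOVL6 -0.029 and DGAT2 -0.895. With median-of-ratios scaling ACADL was at 0.001. With 1 library left out the ranges were ACLY -0.04 to 0.24, ACACA -0.054 to 0.173, SCD -0.544 to 0.25, ELOVL6 -0.12 to 0.131, FADS1 -0.01 to 0.568, DGAT1 -0.071 to 0.303, DGAT2 -0.226 to 0.214, LIPE -0.001 to 0.29, FABP5 -0.496 to 0.076, ACSL1 -0.047 to 0.286, ACADL -0.142 to 0.18, HADHB -0.013 to 0.346 and SQLE -0.057 to 0.176. The replicate block gave 0 calls and a median of 0.01 over the lipid genes. Deviations of same-numbered libraries from their group means correlated at 0.22, -0.52 and -0.14. Deviations among 3 controls depend on each other, so these correlations cannot settle whether the numbers pair the libraries. The labels do not say so. Depth limited PNPLA3 and DGAT2, with 2 and 9 reads in their lowest libraries.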
